A study of Homo sapiens with 6 samples.

Results

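The 10 genes of the acute-phase and innate effector response described here were followed through RNA-seq libraries of LARP7-depleted and control cells. They are Saa3, SAA1, SAA2, LCN2, PTX3, C3, CFB, NOS2, PTGS2 and ICAM1, taken as every table row that carries one of these names. The mouse table holds all 10 among 49089 entries. Each human table holds 9 of them among 63521 entries, since Saa3 is a row of the mouse table alone, and spreads the 9 over 16 entries, because CFB is entered 8 times. The genes were picked with the differences between these same libraries in view, so the values below are a description and no test of them was made.

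LARP7 binds and stabilises 7SK, a noncoding RNA whose ribonucleoprotein keeps the transcription elongation factor P-TEFb inactive. The study sequenced 6 libraries, 1 for each group, in 3 pairs. LARP7-/- mouse embryonic fibroblasts (MEFs, primary cells of E13.5 embryos, used at passages 1 to 6) stood against LARP7+/+ wild-type MEFs. The human pairs are established breast cancer lines, MDA-MB-231 and the BRCA1-mutant HCC1937, given siLARP7 or, as the control, siNC, with siRNA at 10 ng/ml. The MEF libraries carry a human organism label, but their table lists mouse gene IDs. The labels do not say how many embryos the MEFs came from, which passage each library had, how long the siRNA acted or how many siRNA sequences were used. The MEFs came from LARP7-/- embryos and the siRNA was given to cultured lines, so the MEF pair and the line pairs differ in more than species. With 1 library per group there is no replicate error, no test and no p-value anywhere below.

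The acute-phase response is the burst of secreted proteins made, mainly by the liver, when interleukin-6, interleukin-1 and tumour necrosis factor signal tissue injury or infection. Fibroblasts and epithelial cells make several of the same proteins locally, where NF-kB, C/EBP and STAT factors switch their genes on. The 10 genes cover several arms of this response: serum amyloids and other secreted proteins, complement, the enzymes that make nitric oxide and prostaglandins, and an adhesion molecule that lets leukocytes hold on to a tissue.

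Levels are in RPKM, which scales reads to gene length and library depth, as the authors deposited them. Depth recovered from the steps of the RPKM values was 37.3 and 36.9 M reads in the LARP7-/- and wild-type MEF libraries, and 49.3 to 53.3 M reads in the human ones, so that 1 read in 1 kb was worth 0.0187 to 0.0271 RPKM. A gene was called higher or lower when the log2 ratio of depleted to control RPKM + 1 reached 1, provided that the gene reached 1 RPKM in the depleted or the control library of the pair. This scale understates the change of low genes. Intervals are exact 95% Clopper-Pearson intervals of the RPKM ratio, with every 2 reads counted as 1 fragment. They cover counting error only and say nothing of how far another culture would differ. LARP7 itself was lower in each depleted library, at 5.72 RPKM in LARP7-/- against 15.2 RPKM in wild-type MEFs, 4.51 RPKM with siLARP7 against 8.65 RPKM with siNC in MDA-MB-231, and 2.89 RPKM against 5.62 RPKM in HCC1937. In LARP7-/- MEFs 37.6% of the wild-type level remained (interval 32.5 to 43.7%), and the labels do not say which stretch of the gene is deleted.

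Lists of cell type markers were read first. Both MEF libraries carried the fibroblast genes, with Col1a1 at 1541 RPKM in LARP7-/- and 1594 RPKM in wild-type MEFs, and all 8 fibroblast markers passed the level minimum. One of these was called, Dcn, which encodes the matrix proteoglycan decorin, at 92.6 RPKM in LARP7-/- and 16.8 RPKM in wild-type MEFs (log2 ratio 2.40). Of 10 leukocyte and macrophage markers listed in MEFs, 7 passed it, none was called, and their summed level was 50.6 RPKM in LARP7-/- and 38.8 RPKM in wild-type MEFs. Most of that sum was Lyz2, at 28.3 and 22.4 RPKM in the LARP7-/- and wild-type libraries. Macrophage genes of the list were also higher without a call: Adgre1 at 1.77 RPKM in LARP7-/- and 0.844 RPKM in wild-type MEFs, Cd68 at 3.62 and 2.05 RPKM, Cd14 at 9.77 and 6.00 RPKM, Csf1r at 4.22 and 3.55 RPKM, and Itgam, under the minimum, at 0.768 and 0.534 RPKM. The remaining markers were lower in LARP7-/- cells, with Tyrobp at 0.562 RPKM in LARP7-/- and 1.54 RPKM in wild-type MEFs, Laptm5 at 1.25 and 1.50 RPKM, Spi1 at 0.268 and 0.362 RPKM and the pan-leukocyte gene Ptprc at 0.0293 and 0.0370 RPKM. Whether macrophages have a part in the MEF values below was not tested. None of the 5 hepatocyte markers passed the minimum in MEFs, with a summed level of 0.127 RPKM in LARP7-/- and 0.0625 RPKM in wild-type cells, most of it Apob at 0.0769 and 0.0545 RPKM. The most abundant of 8 epithelial and of 5 endothelial markers in MEFs were Krt19, at 15.4 RPKM in LARP7-/- and 16.1 RPKM in wild-type cells, and Kdr, at 0.801 and 1.31 RPKM.

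The human lines differed in their markers. All 8 epithelial markers passed in HCC1937, with KRT8 at 316 RPKM with siLARP7 and 302 RPKM with siNC, whereas 4 passed in MDA-MB-231, a line known for its mesenchymal traits, with KRT19 at 107 and 97.5 RPKM. The fibroblast list was led by VIM, at 199 RPKM with siLARP7 and 149 RPKM with siNC in MDA-MB-231, and at 1.56 and 1.69 RPKM in HCC1937. CD68 led the leukocyte list, at 26.04 RPKM with siLARP7 and 29.4 RPKM with siNC in MDA-MB-231 and at 40.5 and 32.8 RPKM in HCC1937. Other markers of this list also passed. In MDA-MB-231 CD14 was at 21.2 and 20.2 RPKM with siLARP7 and siNC, LAPTM5 at 9.90 and 17.3 RPKM (log2 ratio -0.75) and CSF1R at 0.874 and 1.36 RPKM. In HCC1937 CD14 was at 2.64 and 2.30 RPKM. PTPRC was at most 0.0186 RPKM in any human library. No endothelial marker passed, with KDR the highest in MDA-MB-231, at 0.524 and 0.593 RPKM with siLARP7 and siNC, and PECAM1 in HCC1937, at 0.592 and 0.677 RPKM. SERPINA1, also an acute-phase gene, was the 1 hepatocyte marker that passed, at 22.8 RPKM with siLARP7 and 22.0 RPKM with siNC in MDA-MB-231 and at 1.50 and 1.13 RPKM in HCC1937, and no human marker was called.

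In MEFs, 6 of the 8 members above the level minimum were at least 2-fold higher in the LARP7-/- library, namely Saa3, Lcn2, C3, Cfb, Nos2 and Icam1. Cfb and Nos2, at 0.940 and 0.406 RPKM in wild-type cells, passed the minimum only through the LARP7-/- library, so they could not have been called lower. Among all 14479 genes that passed the minimum, 2.4% were called higher and 0.884% lower. The 2 members not called, Ptx3 and Ptgs2, were the ones already abundant in wild-type cells. The median log2 ratio of the 8 was 1.94, beside 0.00 over all genes that passed. These shares and medians carry no weight as support, since the genes were chosen on this contrast. In cultures like these, more cells that express a gene and more RNA per cell cannot be told apart.

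**Figure D1:**
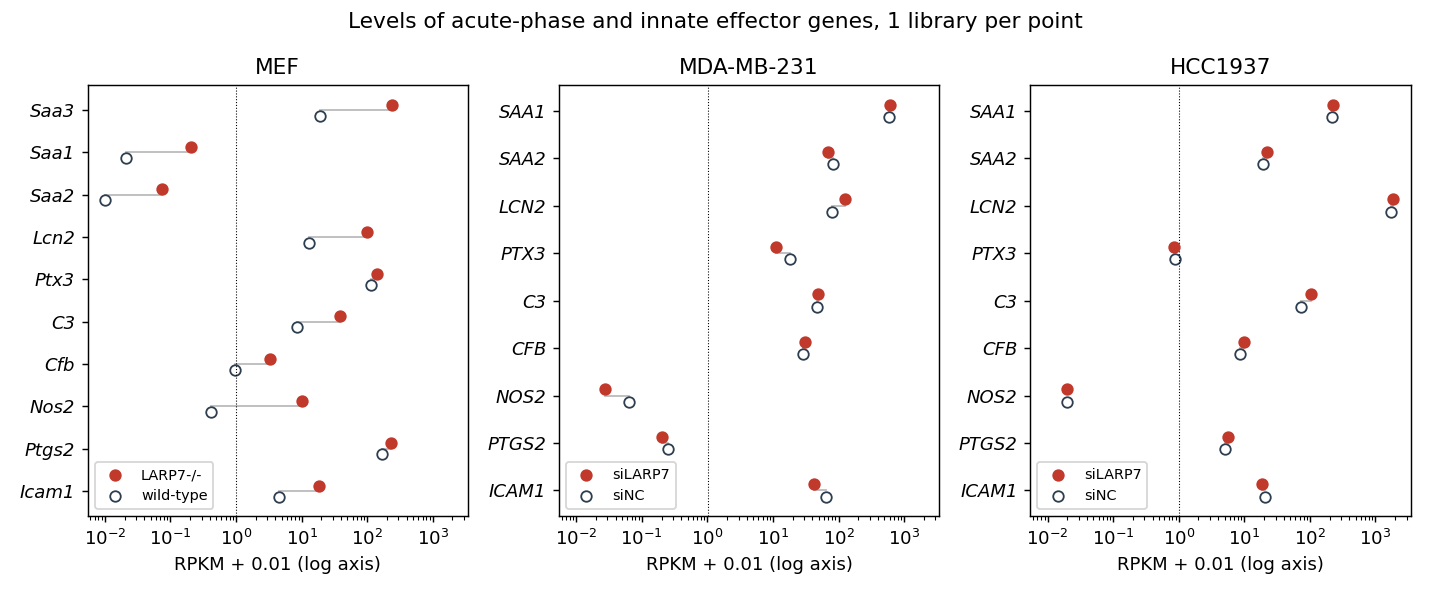
Levels of the members in each of the 6 libraries, on a log axis of RPKM + 0.01, with LARP7-depleted libraries as filled red points and controls as open points (1 library each), and a dotted line at the level minimum of 1 RPKM. In MEFs Saa3 stands at 236 RPKM in LARP7-/- and 19.1 RPKM in wild-type cells, whereas the paired points of SAA1 in both human lines nearly coincide.

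Among the secreted acute-phase proteins, Saa3 (ENSMUSG00000040026.8) stood out in size. Saa3, a serum amyloid A that mouse cells outside the liver make and whose human counterpart is a pseudogene, was at 236 RPKM in LARP7-/- and 19.1 RPKM in wild-type MEFs. This is a 12.3-fold ratio with a counting interval of 11.05 to 13.8 and a log2 ratio of 3.56, the 2nd highest of the 14479 genes. By level the gene stood at position 252 among all entries of the LARP7-/- library, against 3250 in the wild-type library. The liver-type serum amyloids were nearly silent in both. Saa1 was at 0.195 RPKM, at least 18 reads, in LARP7-/- and 0.0109 RPKM, at least 1 read, in wild-type MEFs, a ratio of 17.8 whose interval reached from 1.23 to 389.9. Saa2 was at 0.0639 RPKM in LARP7-/- and listed at 0 in wild-type MEFs, too few reads for a fold, and these close paralogs can also share reads.

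Lcn2 and Ptx3, the other secreted members apart from complement, differed in how far apart the libraries were. Lcn2 encodes lipocalin-2, which starves bacteria of iron by binding their siderophores. It was at 99.4 RPKM in LARP7-/- and 12.8 RPKM in wild-type MEFs, a 7.75-fold ratio (interval 7.12 to 8.44, log2 ratio 2.86) and the 7th highest log2 ratio. Ptx3, a long pentraxin that binds microbes and complement C1q, was at 141 RPKM in LARP7-/- and 114 RPKM in wild-type MEFs, a 1.24-fold ratio (interval 1.16 to 1.31, log2 ratio 0.30). Ptx3 was thus abundant in both libraries.

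Both complement members were higher in LARP7-/- MEFs. C3, the protein on which all complement pathways converge, was at 38.7 RPKM in LARP7-/- and 8.51 RPKM in wild-type cells, a 4.55-fold ratio (interval 4.21 to 4.91, log2 ratio 2.06). Cfb, the protease of the alternative pathway that activates C3, was at 3.33 and 0.940 RPKM in the LARP7-/- and wild-type libraries, a 3.54-fold ratio (interval 2.57 to 4.98). Its log2 ratio of 1.16 was the closest above the size rule among the members, and it rests on at least 351 reads in LARP7-/- and 98 reads in wild-type cells. The highest member that did not reach the rule was Ptgs2, at 0.44.

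The enzymes did not move alike. Nos2, the inducible nitric oxide synthase, was at 10.3 RPKM, at least 1691 reads, in LARP7-/- MEFs and at 0.406 RPKM, at least 66 reads, in wild-type MEFs. The ratio of 25.3 (interval 17.9 to 37.1) was the widest of the members above the minimum, and its log2 ratio on RPKM + 1 was 3.003. With a pseudocount of 0.1 in place of 1 it was 4.36. Ptgs2, the inducible cyclooxygenase COX-2, was the most abundant member in wild-type cells, at 231.3 RPKM in LARP7-/- and 170 RPKM in wild-type MEFs, a 1.36-fold ratio (interval 1.28 to 1.44). Icam1, the adhesion molecule that leukocyte integrins bind, was at 18.1 RPKM in LARP7-/- and 4.44 RPKM in wild-type MEFs, a 4.08-fold ratio (interval 3.29 to 5.11, log2 ratio 1.81).

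The order of levels differed between the MEF libraries. In LARP7-/- cells it ran Saa3, Ptgs2, Ptx3, Lcn2, C3, Icam1, Nos2 and Cfb, and Saa3 and Ptgs2 lay close together at 236 and 231.3 RPKM. In wild-type cells the order was Ptgs2, Ptx3, Saa3, Lcn2, C3, Icam1, Cfb and Nos2. Summed over the 10 genes, the level was 779 RPKM in LARP7-/- and 331 RPKM in wild-type MEFs. The authors' deposited table, which shrinks changes towards 0, lists log2 changes of 3.54 for Saa3, 4.25 for Nos2, 2.85 for Lcn2, 2.09 for C3, 1.85 for Icam1, 1.44 for Cfb, 0.41 for Ptgs2 and 0.26 for Ptx3.

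**Figure D2:**
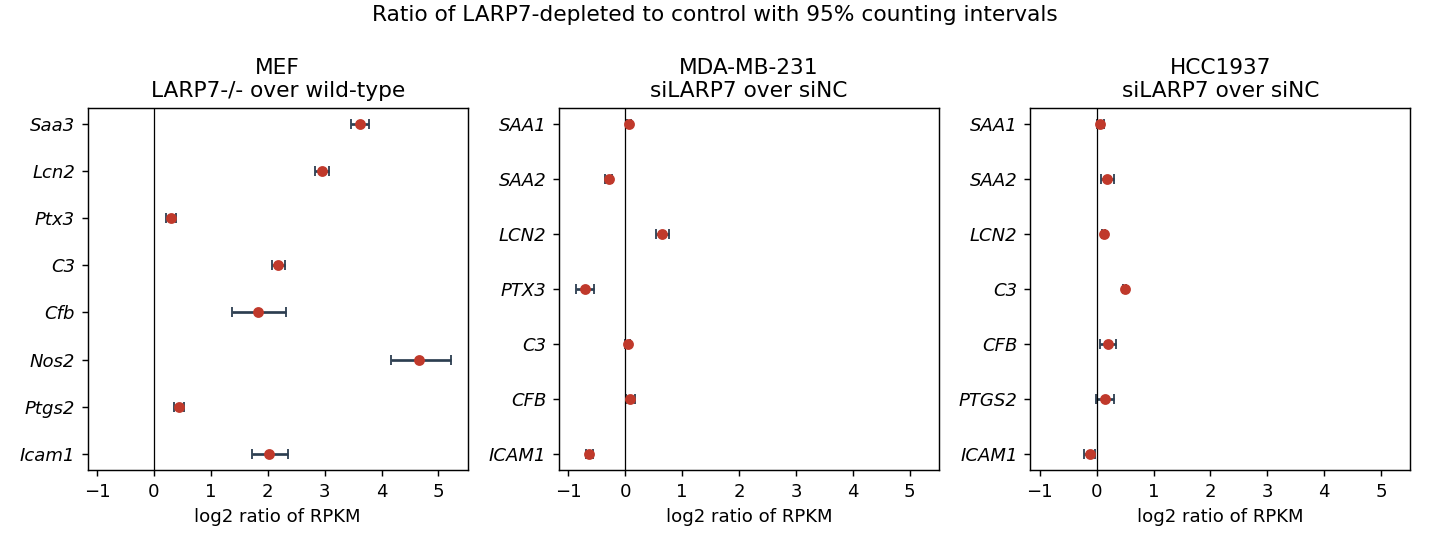
Log2 ratio of RPKM, LARP7-depleted over control, for each member above the level minimum in MEFs, MDA-MB-231 and HCC1937 (points, 1 library per group), with 95% intervals for counting error as bars. All 8 points of MEFs lie right of 0, with Nos2 at a 25.3-fold ratio, while in MDA-MB-231 SAA2, PTX3 and ICAM1 lie left of 0.

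Genes that act around the members were read from 10 pathway lists. Over their union, 17 of the 100 genes above the minimum in MEFs were called higher in LARP7-/- and none was called lower. The background was 2.4% and 0.884%. Some uncalled genes exceeded 2-fold in plain RPKM ratio, such as Ptgfr at 3.79 and Tlr3 at 3.18. Ptgfr and Tlr3, at 0.312 and 0.588 RPKM in wild-type MEFs, passed the minimum only through the LARP7-/- library. So did other list genes, Lbp among them, and such genes could not have been called lower. The median log2 ratio was 0.40 over the 100 genes and 0.00 over all genes that passed. The lists were chosen with earlier results of these data known, so these shares and medians carry no weight as support. List medians in MEFs depend on the level minimum: without it they were 0.64 for other acute-phase proteins, 0.09 for complement regulators and 0.20 for complement components, against 1.52, 1.35 and 0.85 with it. No gene of the lists was called in either human line, of 93 above the minimum in MDA-MB-231 and 79 in HCC1937. Over all genes, 0.501% were called higher and 0.74% lower in MDA-MB-231, and 0.399% and 1.23% in HCC1937. In HCC1937 the receptor gene IL6ST, at 3.51 RPKM with siLARP7 and 7.58 RPKM with siNC, and STEAP4, at 1.48 and 3.19 RPKM, were uncalled. Both had a plain RPKM ratio of 0.463 as deposited.

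Other acute-phase proteins had 5 of 8 measured genes called higher and a median log2 ratio of 1.52. Steap4, a metalloreductase, was at 17.7 RPKM in LARP7-/- and 2.23 RPKM in wild-type MEFs (log2 ratio 2.53). Serpina3n, a protease inhibitor, was at 8.92 and 1.14 RPKM in the same order of libraries, LARP7-/- and wild-type (2.21). Haptoglobin, Hp, which binds free haemoglobin, was at 19.4 RPKM in LARP7-/- and 4.42 RPKM in wild-type cells (1.91). The lipopolysaccharide-binding protein Lbp (1.53) and the copper carrier ceruloplasmin, Cp (1.52), were also called. Lbp was at 2.88 RPKM in LARP7-/- and 0.342 RPKM in wild-type MEFs. Like the uncalled S100a8, at 2.01 and 0.859 RPKM, Lbp passed the minimum only through the LARP7-/- library. Neither gene could have been called lower. Serpina3g had the highest level of the list, at 32.2 RPKM in LARP7-/- and 17.5 RPKM in wild-type MEFs, and was not called (0.85).

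Among complement genes beyond C3 and Cfb, regulators and the first proteases of the classical pathway were called. Of 5 measured regulators and receptors 4 were called higher. The C1 inhibitor Serping1, at 17.8 RPKM in LARP7-/- and 2.96 RPKM in wild-type MEFs (log2 ratio 2.25), had the highest mean level of them, although Cd59a was higher in the wild-type library, at 3.95 RPKM. Clusterin, Clu, was at 8.49 and 1.83 RPKM in LARP7-/- and wild-type cells (1.75), and the decay-accelerating and membrane-attack inhibitors Cd55 (1.35) and Cd59a (1.07) followed. Among 7 measured components and proteases, C1s1, at 19.9 RPKM in LARP7-/- and 3.43 RPKM in wild-type cells (2.24), and C1ra, at 15.5 and 5.29 RPKM (1.39), were called. C1ra and C1s1 each have a close mouse copy, C1rb and C1s2, and Serpina3n and Cd59a have close copies too, so the values of these genes may include or miss reads of a copy. Masp1, a protease of the lectin pathway, had the highest mean level and went the other way without a call, at 16.0 RPKM in LARP7-/- and 23.6 RPKM in wild-type MEFs (-0.53).

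**Figure D3:**
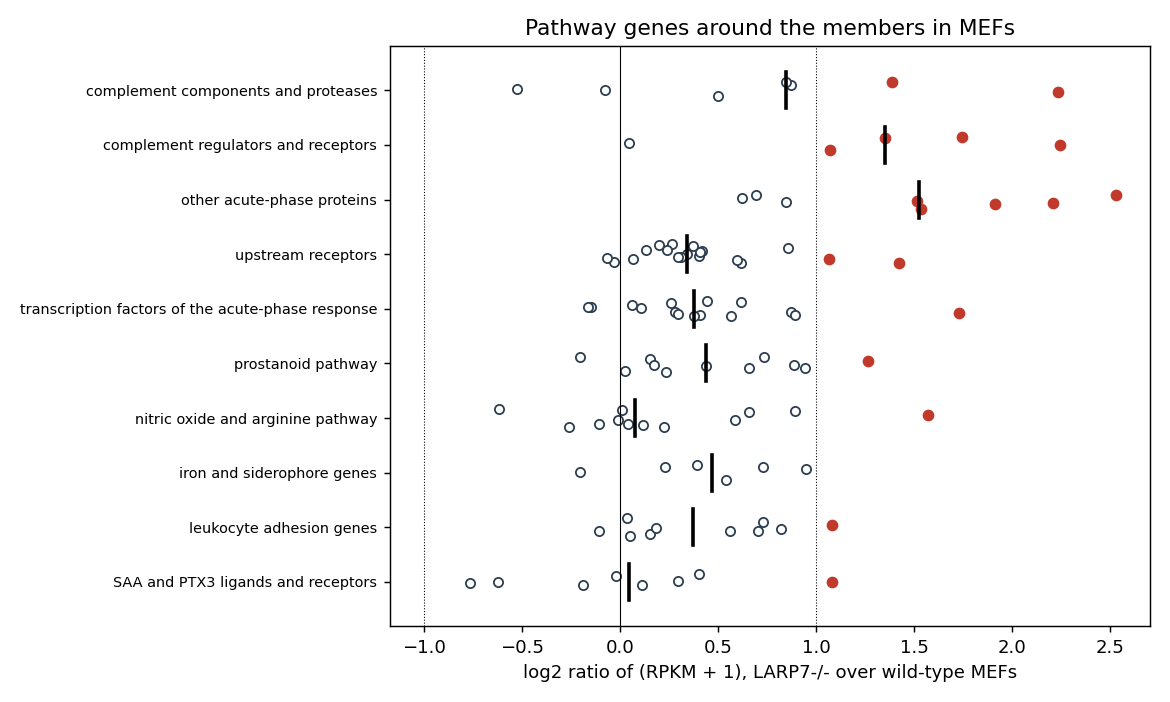
Log2 ratio of RPKM + 1, LARP7-/- over wild-type MEFs (1 library each), for every gene of 10 pathway lists above the level minimum, with called genes as filled red points, the list median as a black bar and dotted lines at -1 and 1. Lists of acute-phase proteins and complement regulators have medians of 1.52 and 1.35 (0.64 and 0.09 without the level minimum), while the receptor and transcription factor lists have medians of 0.34 and 0.38.

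Receptors and transcription factors upstream of the members were mostly not called. Of 19 measured receptors 2 were called, the pattern receptor Tlr2 at 12.5 RPKM in LARP7-/- and 4.03 RPKM in wild-type MEFs (log2 ratio 1.42) and the tumour necrosis factor receptor Tnfrsf1b at 16.7 and 7.48 RPKM (1.06). Tnfrsf1a, the most abundant receptor, was at 54.2 RPKM in LARP7-/- and 45.8 RPKM in wild-type cells (0.24). Of the 15 measured transcription factors 1 was called, a gene not reported here. The C/EBP gene Cebpb had the highest level of the 15, at 258 and 140 RPKM in LARP7-/- and wild-type cells, and stayed under the rule at 0.87. The NF-kB subunit gene Rela was at 35.6 RPKM in LARP7-/- and 33.0 RPKM in wild-type MEFs (0.10). The other subunit genes Relb (0.62), Nfkb2 (0.44) and Nfkb1 (0.38) were above 0 and Rel (-0.17) below it, all uncalled. Of the 19 measured receptors 17 had log2 ratios above 0, as did 13 of the 15 transcription factors. The median log2 ratio over all genes that passed was 0.00, and the share of all genes above 0 was not counted. These sign counts carry no weight as support, since the lists were chosen with earlier results known.

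Around the enzymes, 1 gene in each list was called. The prostaglandin E synthase Ptges, which works on the product of Ptgs2, was at 42.8 RPKM in LARP7-/- and 17.2 RPKM in wild-type MEFs (log2 ratio 1.27), while Ptges3, the most abundant of 11 measured prostanoid genes, was at 48.8 and 56.4 RPKM (-0.20). The arginine transporter Slc7a2, which feeds nitric oxide synthase, was at 13.0 RPKM in LARP7-/- and 3.71 RPKM in wild-type cells (1.57). Ass1, which remakes arginine from citrulline, was at 134 and 71.6 RPKM in the LARP7-/- and wild-type libraries (0.89), uncalled and the highest of 12 measured genes.

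Adhesion and iron genes gave few calls. P-selectin, Selp, at 4.80 RPKM in LARP7-/- and 1.74 RPKM in wild-type MEFs (log2 ratio 1.08), was the 1 called gene of 10 in the leukocyte adhesion list and of 8 in the list of ligands and receptors of serum amyloids and pentraxins, to which it also belongs. The integrin Itgb1 was the most abundant adhesion gene, at 556 and 489 RPKM in LARP7-/- and wild-type cells, and Fgf2, a ligand of Ptx3, led the other list at 11.2 and 12.9 RPKM. None of the 6 iron and siderophore genes was called, and the ferritin gene Ftl1 was at 2339.6 RPKM in LARP7-/- and 1999 RPKM in wild-type MEFs.

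In MDA-MB-231 none of the 7 members above the minimum was called, beside 0.501% of 17575 genes called higher and 0.74% called lower. The log2 ratios ran from -0.66 to 0.64 with a median of 0.04, against 0.00 over all genes that passed. LCN2 lay at the upper end, and PTX3 and ICAM1 at the lower end. Of the serum amyloids, SAA1 was the most abundant member, at 617 RPKM with siLARP7 and 589.6 RPKM with siNC (ratio 1.05, interval 1.02 to 1.07). SAA2 was at 68.4 RPKM with siLARP7 and 83.5 RPKM with siNC (ratio 0.819, interval 0.785 to 0.855, log2 ratio -0.28). The coding sequences of SAA1 and SAA2 in GENCODE release 29 are 366 bases each without the stop codon and differ at 11 bases, 97.0% identity with one identical run of 186 bases, so reads can be shared and the separate values of these genes are uncertain.

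LCN2 and PTX3 differed in opposite directions in this line. LCN2 was at 125 RPKM with siLARP7 and 79.7 RPKM with siNC, a ratio of 1.57 (interval 1.45 to 1.70, log2 ratio 0.64). PTX3 was at 11.2 RPKM with siLARP7 and 18.2 RPKM with siNC, which is 61.2% of the control (interval 55.0 to 68.1%, log2 ratio -0.66). ICAM1 was at 41.8 and 64.8 RPKM with siLARP7 and siNC, or 64.6% of the control (interval 62.1 to 67.2%, log2 ratio -0.62). Both stayed short of a 2-fold difference, and with the trend of the log2 ratio on GC content, length and level removed they were at -0.65 and -0.64, with LCN2 at 0.70. C3 was at 48.0 RPKM with siLARP7 and 46.6 RPKM with siNC (ratio 1.03, interval 1.00 to 1.06). PTGS2 was below the minimum, at 0.196 RPKM (55 reads) with siLARP7 and 0.237 RPKM (62 reads) with siNC, and NOS2 had 4 and 11 reads with siLARP7 and siNC, with intervals of the ratio from 0.485 to 1.45 for PTGS2 and from 0.0306 to 1.73 for NOS2. Both intervals include no difference and leave out a 2-fold higher level with siLARP7.

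HCC1937 had no called member among 7 either, beside 0.399% of 15797 genes called higher and 1.23% called lower. That split depends on scaling: 24.4% of calls were higher as deposited, 47.5% with the median ratio set to 1 and 49.0% with a trimmed mean. All tested genes of this pair had a median log2 ratio of -0.14, so each member is given as deposited and as scaled to a median ratio of 1. As deposited, C3 had the largest ratio of the members, at 103 RPKM with siLARP7 and 73.3 RPKM with siNC (ratio 1.40, interval 1.38 to 1.43), with a log2 ratio of 0.48 as deposited, 0.62 scaled and 0.22 with the trend removed, where PTGS2 was larger at 0.45. LCN2 was the 14th most abundant of all entries with siLARP7 and the 13th with siNC, at 1867 and 1713 RPKM (log2 ratio 0.12, scaled 0.26, trend removed -0.05).

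The other members of HCC1937 stayed within 0.2 of 0 as deposited. SAA1 was at 228 RPKM with siLARP7 and 218 RPKM with siNC (log2 ratio 0.06, scaled 0.20, trend removed -0.24). SAA2 was at 21.8 RPKM with siLARP7 and 19.1 RPKM with siNC (0.18, scaled 0.31, trend removed 0.19). PTGS2 was at 5.64 and 5.09 RPKM with siLARP7 and siNC (0.12, scaled 0.24, trend removed 0.45), with an interval of the ratio from 0.996 to 1.23 that includes no difference. The sign of ICAM1 turned with scaling, at 18.9 RPKM with siLARP7 and 20.6 RPKM with siNC (-0.11 as deposited, 0.01 scaled, -0.26 with the trend removed). PTX3, at 0.825 RPKM (81 reads) with siLARP7 and 0.857 RPKM (82 reads) with siNC, and NOS2, with 2 reads in each library, were below the minimum.

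CFB needs a word on its entries. The gene lies in the major histocompatibility complex, and the human tables give it under 8 gene IDs, of which ENSG00000243649.4 is the one that GENCODE release 29 places on the reference chromosome under that name. Another, ENSG00000244255.1, is also in that release under a different name. Several of the IDs hold near-equal values and can share reads, so they are not separate measurements. The reference entry was at 30.7 RPKM with siLARP7 and 28.8 RPKM with siNC in MDA-MB-231 (log2 ratio 0.09), and at 9.89 and 8.62 RPKM with siLARP7 and siNC in HCC1937 (0.18, scaled 0.30, trend removed 0.16). Over the 8 entries the log2 ratios ran from -0.10 to 0.13 in MDA-MB-231, with 7 above 0, and from 0.18 to 0.26 in HCC1937, with all 8 above 0.

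**Figure D4:**
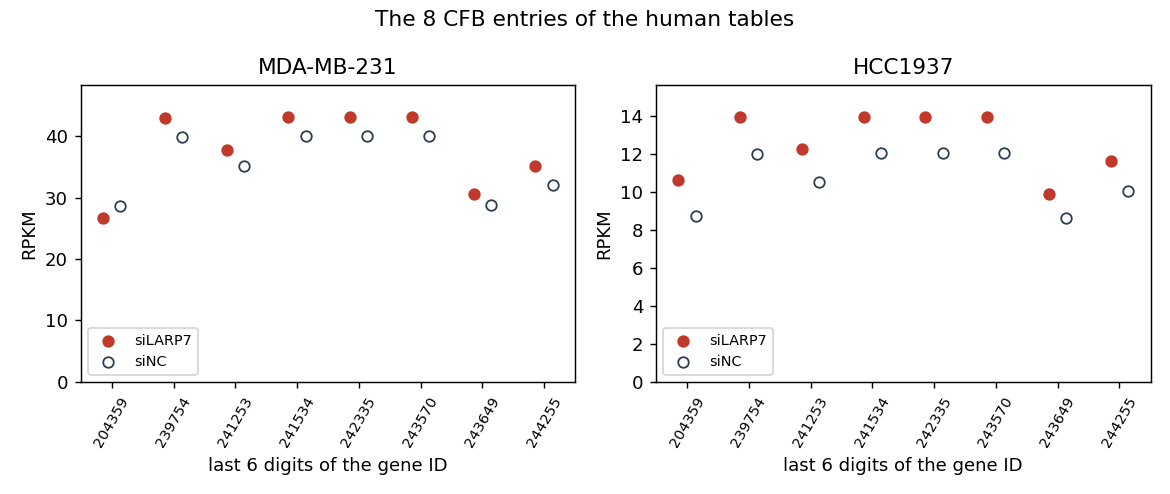
RPKM of the 8 CFB entries in MDA-MB-231 and HCC1937, with siLARP7 as filled red points and siNC as open points (1 library each), named by the last digits of the gene ID. The leftmost entry of MDA-MB-231 lies lower with siLARP7, at 26.7 against 28.7 RPKM, and the other 7 lie higher.

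The pathway lists of the human lines are described by the gene with the highest mean level of both libraries, since none was called. In MDA-MB-231, 17 of 19 measured upstream receptors were below 0, with a list median of -0.16 against 0.00 over all genes that passed. The shared interleukin-6 receptor chain IL6ST was at 33.0 RPKM with siLARP7 and 49.3 RPKM with siNC (log2 ratio -0.56). The ferritin gene FTL was at 1488 RPKM with siLARP7 and 888 RPKM with siNC in MDA-MB-231 (0.74), and at 3613 and 3243 RPKM in HCC1937 (0.16). CEBPB, a factor that acts on acute-phase promoters, was at 75.7 RPKM with siLARP7 and 54.2 RPKM with siNC in MDA-MB-231 (0.48), and at 182 and 103 RPKM in HCC1937 (0.82). Both FTL and CEBPB lay under the size rule in each line.

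For the other lists in MDA-MB-231, the genes of highest mean level were C1R at 8.03 RPKM with siLARP7 and 7.47 RPKM with siNC, CD59 at 57.2 and 61.4 RPKM, SERPINA1 as given above, PTGES at 58.1 and 78.4 RPKM, the arginine transporter SLC7A1 at 20.2 and 24.3 RPKM, ITGB1 at 181 and 229 RPKM, and the serum amyloid receptor SCARB1 at 7.47 and 7.65 RPKM. With siLARP7 alone, PTGES3 at 59.7 RPKM exceeded PTGES and DDAH2 at 20.8 RPKM exceeded SLC7A1. The medians of the 10 lists lay between -0.21 and 0.11 in this line. In HCC1937 they were C1R at 5.71 RPKM with siLARP7 and 4.35 RPKM with siNC, CD59 at 26.5 and 28.7 RPKM, the neutrophil and epithelial protein S100A9 at 681 and 582 RPKM, TNFRSF1A at 14.3 and 16.5 RPKM, PTGES at 103 and 87.1 RPKM, ASS1 at 125 and 100.5 RPKM, ITGB1 at 153 and 183 RPKM, and FGF2 at 9.21 and 9.70 RPKM. List medians in HCC1937 ran from -0.21 to 0.24 as deposited, and those of the transcription factor, nitric oxide and adhesion lists turned from below to above 0 when the median ratio was set to 1.

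Promoter sequences are shown for the 3 members that differed most in MDA-MB-231, LCN2, PTX3 and ICAM1, and for CFB, which shares a 9-base match with ICAM1. They run from 250 bases before to 50 after the annotated start, on the gene's own strand, from RefSeq on GRCh38.p14. The table used here also held PTGS2, so 5 of the 9 human members were matched. Capitals mark matches, on either strand, to the 10-base NF-kB consensus, to TTGCNNAA (a C/EBP-type site), to TTCNNNGAA (a STAT-type site) and to TATAAA. No 2 kinds of match overlap in the printed sequences.
LCN2, chr9:128149203-128149502, plus strand: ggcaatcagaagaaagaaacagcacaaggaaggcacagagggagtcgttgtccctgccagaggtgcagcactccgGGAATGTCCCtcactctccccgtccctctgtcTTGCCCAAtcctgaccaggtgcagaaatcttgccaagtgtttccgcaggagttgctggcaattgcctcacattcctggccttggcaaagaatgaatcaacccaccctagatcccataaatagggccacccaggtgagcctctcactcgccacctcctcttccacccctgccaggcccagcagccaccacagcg
PTX3, chr3:157436600-157436899, plus strand: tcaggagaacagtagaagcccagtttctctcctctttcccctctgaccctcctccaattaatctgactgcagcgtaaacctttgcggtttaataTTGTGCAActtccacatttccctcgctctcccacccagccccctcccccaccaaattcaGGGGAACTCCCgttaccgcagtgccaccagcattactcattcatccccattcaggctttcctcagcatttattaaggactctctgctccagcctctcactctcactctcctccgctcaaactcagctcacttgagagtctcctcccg
ICAM1, chr19:10270870-10271169, plus strand: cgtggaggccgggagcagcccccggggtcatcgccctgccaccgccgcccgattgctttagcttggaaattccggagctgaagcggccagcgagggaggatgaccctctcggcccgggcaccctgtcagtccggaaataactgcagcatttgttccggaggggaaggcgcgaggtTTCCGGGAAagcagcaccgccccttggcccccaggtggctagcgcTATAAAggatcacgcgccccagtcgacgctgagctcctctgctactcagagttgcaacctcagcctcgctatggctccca
CFB, chr6:31945845-31946144, plus strand: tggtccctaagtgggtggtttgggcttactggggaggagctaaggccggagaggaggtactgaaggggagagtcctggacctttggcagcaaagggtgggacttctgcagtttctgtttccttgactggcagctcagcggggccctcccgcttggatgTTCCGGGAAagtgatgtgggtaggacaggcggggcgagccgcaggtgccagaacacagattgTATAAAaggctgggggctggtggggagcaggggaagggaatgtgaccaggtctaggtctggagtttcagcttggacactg

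LCN2 and PTX3, which differed in opposite directions in MDA-MB-231, both hold an NF-kB consensus match and a TTGCNNAA match in this window. In LCN2 these begin 175 and 143 bases before the start. In PTX3 a pair of overlapping NF-kB matches begins 97 and 96 bases before the start, and the TTGCNNAA match 156 bases before it. ICAM1 and CFB hold the same 9 bases, TTCCGGGAA, which begin 75 bases before the start of ICAM1 and 92 before that of CFB, and both have TATAAA 30 bases before the start. PTGS2 has a TTGCNNAA match 133 bases and TATAAA 32 bases before its start. Of all 35116 promoters of the same length, 5.91% hold the NF-kB consensus, 10.5% TTGCNNAA, 7.66% TTCNNNGAA and 11.5% TATAAA. A match is a run of letters and was not tied to binding of any factor here, and no mouse promoter was used, so these windows do not bear on the MEF values. Sites that depart from these letters were not marked. A window without a match, such as that of ICAM1 for the NF-kB consensus, may still hold such a site.

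The genes most like each member were found by distance. For LCN2, C3, CFB and ICAM1, which passed the minimum in all 3 pairs, the measure was the Euclidean distance between the 3 log2 ratios over 8265 genes matched by symbol. Nearest to C3 was Clu, at 1.75 in MEFs, -0.11 in MDA-MB-231 and 0.37 in HCC1937 (distance 0.37), followed by Ube2l6 (0.43) and Gbp2 (0.57). ICAM1 had Pmaip1 as its nearest gene, at 1.50, -0.55 and -0.05 in MEFs, MDA-MB-231 and HCC1937 (distance 0.33), then Ifitm1 (0.44) and Tfpi2 (0.44). CFB lay closest to Unc93b1 (distance 0.10), Fbxo44 (0.12) and Ndrg2 (0.13). LCN2 stood farther from any gene, with Lgals3bp and Isg15 both at 0.85 and Usp18 at 0.95. Saa3 and Nos2 passed in MEFs alone and were matched on the log2 levels of the MEF libraries over 14385 genes. Bst2, at 173 RPKM in LARP7-/- and 16.6 RPKM in wild-type cells, was nearest to Saa3 (distance 0.48), before Penk (1.02) and Lgals3bp (1.13). Ccl11, at 11.9 RPKM in LARP7-/- and 0.526 RPKM in wild-type MEFs, was nearest to Nos2 (0.23), before Gm23474 (0.55) and Serpina3n (0.64).

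Side by side, the members' log2 ratios in MEFs, MDA-MB-231 and HCC1937 were 2.86, 0.64 and 0.12 for LCN2, 2.06, 0.04 and 0.48 for C3, 1.16, 0.09 and 0.18 for CFB, and 1.81, -0.62 and -0.11 for ICAM1. Levels in the controls differed as well. Control LCN2 was at 12.8 RPKM in MEFs, 79.7 RPKM in MDA-MB-231 and 1713 RPKM in HCC1937, and control C3 at 8.51, 46.6 and 73.3 RPKM in the same order. NOS2 had almost no reads in the human controls, and differences of species, cell type, and knockout or siRNA cannot be told apart in this design.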

How the data were processed

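RNA was measured by sequencing in 6 libraries, 1 per group. Per the submitters' processing notes, the tools were cutadapt, FastQC and STAR and the build GRCh37, without version numbers. A mouse build, the counting program, its annotation and any use of strand are not stated in the labels or file headers. RPKM per gene and library was deposited by the authors, with a log2 change from GFOLD at a setting of 0.01 that shrinks changes towards 0, per the file headers. Table columns were matched to libraries by cell type and column name. Each human table was used without its 47 pseudoautosomal entries on Y.

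Depth came from RPKM steps. In human libraries 90.0 to 90.7% of single-exon genes under 50 reads gave whole reads within 0.01 at GENCODE release 29 lengths. Even read numbers outnumbered odd ones in each of these, from 1452 against 1415 genes in HCC1937 with siNC to 1435 against 1222 with siLARP7. Odd numbers were thus common, so this does not show that reads came in pairs, and it was not counted in MEFs. Intervals count 2 reads as 1 fragment in every library, which widens them. In MEFs depth came from short genes without known lengths, of which 604 of 4226 fitted in the LARP7-/- and 578 of 3934 in the wild-type library. This fit is of another kind than the human one. A MEF read number is that at the shortest gene length, from 150 bases, that gives whole reads in both libraries. MEF read numbers are therefore minimums, and the MEF intervals rest on them. Human lengths are annotated ones where whole reads resulted and otherwise the shortest that gave them. A count of 0 allows up to 3 reads.

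Log2 ratios used a pseudocount of 1 RPKM, a level minimum of 1 RPKM in at least 1 library of a pair, and a 2-fold size rule. Named genes are the members, up to 6 called genes and the gene of highest mean level of each pathway or marker list in each pair, LARP7 and the 3 nearest genes. One gene that this rule names is not reported here. Rela, Relb, Rel, Nfkb1, Nfkb2, Ptgfr, Tlr3, S100a8, PTGES3, DDAH2 and, in HCC1937, IL6ST and STEAP4 were added after their values were seen. So were the leukocyte markers of MEFs other than Lyz2 and, in the human lines, PTPRC, CD14, LAPTM5 and CSF1R. The members and lists were chosen with earlier results of these data known. Alternatives were a pseudocount of 0.1, no minimum or one of 5 RPKM, scaling to a median ratio of 1 or by a trimmed mean (30% of ratios and 5% of levels from each end), and, in human lines, removal of a trend of degree 3 on GC content, length and level. The calls, the depth fits and, for the human lines, read numbers at known lengths were tested on simulated data. The intervals, the scalings, the trend removal and the choice of the shortest length were not. Python 3.11.15, numpy 2.4.6, pandas 2.3.3, scipy 1.17.1 and matplotlib 3.10.9 were used.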

Additional observations from a re-analysis of the deposited data

Results flagged for a closer look

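The serum amyloid gene SAA2 stood on opposite sides in the siRNA comparisons, with a log2 ratio of siLARP7 over siNC of -0.28 in MDA-MB-231 and 0.18 in HCC1937, and the counting interval of the ratio excluded 1 in both lines. One of the 8 CFB entries, ENSG00000204359.5, did likewise, at -0.10 in MDA-MB-231 and 0.26 in HCC1937. Neither difference between the lines was tested, each rests on 1 library per group, SAA2 can share reads with SAA1, and the CFB entry can share reads with the other 7.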

How the results depend on the processing

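All 39 alternative values of the 8 members above the minimum in MEFs and all 42 of the 7 in MDA-MB-231 kept their sign and their side of the size rule. In HCC1937, 4 of 42 changed sign, those of ICAM1 under both scalings and of LCN2 and SAA1 with the trend removed, and none was called. At a minimum of 5 RPKM, Cfb dropped out in MEFs, which left 5 members called. With a pseudocount of 0.1, called genes in MEFs were 4 complement components, 6 other acute-phase proteins, 3 upstream receptors, 3 prostanoid, 2 nitric oxide, 1 iron and 3 adhesion genes. The counts of the other pathway lists did not change at that setting. At 5 RPKM the adhesion and the serum amyloid and pentraxin lists had 0. Without a level minimum, list medians in MEFs came to 0.64 for other acute-phase proteins, 0.20 for complement components, 0.09 for complement regulators, 0.18 for prostanoid, 0.23 for iron and 0.08 for adhesion genes. Counts over all genes moved more. With a pseudocount of 0.1, 758 genes were higher and 276 lower in MEFs (1034 in all), 308 and 340 in MDA-MB-231 (648) and 208 and 903 in HCC1937 (1111). At 5 RPKM, 202 were higher in MEFs (293 in either direction), 30 higher and 61 lower in MDA-MB-231 (91), and 110 lower in HCC1937 (155). In HCC1937, a median ratio of 1 gave 116 higher and 128 lower, and a trimmed mean 120 and 125. As reported, the counts were 348 and 128 in MEFs, 88 and 130 in MDA-MB-231 and 63 and 195 in HCC1937. No paired analysis was possible because each group has 1 library, and no replicate could be left out. Depth limits the members under 1 RPKM in both libraries of a pair. These are Saa1 and Saa2 in MEFs, NOS2 and PTGS2 in MDA-MB-231 and NOS2 and PTX3 in HCC1937.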
